A study of Mus musculus with 6 samples.

Results

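The 32 genes described here encode the enzymes of the tricarboxylic acid (TCA) cycle, the carrier and the dehydrogenase complex that bring pyruvate into it, and the enzymes that connect it with amino acids, lipids and NADPH. They were taken from a list of gene symbols that was drawn up with earlier results of these data known, though the rule itself uses no difference between the groups. All 32 had a probe on the array, out of 23462 genes with a named probe. Of these, 31 had a probe that passed the filter on dim probes, as did 12950 of all genes, and a difference between the groups could be fitted for 30 members. The 2 members without one, Dld and Acly, are described separately.

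Pyruvate made by glycolysis enters mitochondria through a carrier of MPC1 and MPC2 and is converted to acetyl-CoA by the pyruvate dehydrogenase complex. Pyruvate dehydrogenase kinases switch the complex off by phosphorylation and phosphatases switch it on again. Acetyl-CoA is then joined to oxaloacetate and oxidized round the cycle to give NADH, and in macrophages and microglia intermediates such as citrate and succinate are also known as precursors and signals in activation. The protein PGC-1α, the product of Ppargc1a, binds no DNA itself and coactivates the nuclear receptor ERRα and the factor NRF1, among others, on many genes of mitochondrial metabolism, a role worked out largely in muscle and brown fat.

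Microglia, the resident macrophages of the brain, were profiled on 6 arrays of 1 colour, 3 per genotype, from mice labelled male and 10 weeks old. The question was whether overexpression of PGC-1α in microglia altered their transcripts in the resting state. PGC-1αf/f mice, the littermate controls, carry an added PGC-1α allele with loxP sites and an eGFP tag that stays off without Cre. In mPGC-1α mice the same allele is switched on by a tamoxifen-inducible Cre recombinase expressed from the Cx3cr1 locus. The controls are named without this Cre, so Cre and the altered Cx3cr1 locus cannot be told apart from the overexpression. Both genotypes were on a C57BL/6 background and the labels of these samples name no treatment. They do not say whether the control mice were given tamoxifen. The paper describes both genotypes after tamoxifen for its stroke and morphology experiments, and does not state it for the arrays. If these controls had none, tamoxifen and genotype cannot be told apart. Cre from Cx3cr1 can act in any cell that uses this promoter, so other Cx3cr1-expressing macrophages can carry the switched-on allele. Per its methods, the study left an interval after tamoxifen meant to keep the switch to microglia. Cells were collected with an antibody against P2RY12 and magnetic beads, a selection that can retain other brain and blood cells. Since the labels do not say whether each sample came from a separate animal, p-values measure the spread between these samples only, which may be technical.

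All signals are log2 intensity minus the 75th percentile of the array, so that 0 is the level of the 75th percentile, and a difference of 1 is a doubling. The 14 microglial markers were well above background on all 6 arrays. Among them Cx3cr1, whose locus carries the Cre, was lower in mPGC-1α microglia without overlap. Its difference was -0.51 ± 0.14 (SE; adjusted p = 0.194, limma), and the part of the altered locus in it was not tested. The targeted gene, Ppargc1a, read 0.19, -0.44 and -1.21 in PGC-1αf/f and 0.57, 0.28 and 0.08 in mPGC-1α microglia. The groups overlapped, and the difference of 0.80 ± 0.35 (SE) gave an adjusted p of 0.306 in limma. A second probe of Ppargc1a gave 0.59 ± 0.38 (SE; adjusted p = 0.445, limma), and without PGC-1αf/f replicate 3 the first gave 0.44. PGC-1αf/f replicate 3 stood apart, with a mean correlation of 0.93 to the other arrays against 0.96 to 0.97 for each of these. On that array the median of the blood leukocyte markers lay 2.21 below their means over the 6 arrays, against 0.10 to 0.86 above them on the other arrays. Signals of 4 Y-linked genes (Ddx3y, Eif2s3y, Kdm5d and Uty) were not above background on mPGC-1α replicate 3, against its label. Xist, which marks female cells, was above background there and on replicate 2 of both groups, all labelled male. The PGC-1αf/f arrays lay in row 1 of the slide and the mPGC-1α arrays in row 2, so slide row and genotype cannot be told apart.

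No member passed an adjusted p of 0.05 in limma, where 0.0619% of all tested genes did (8 of 12932). The smallest adjusted p among the members was 0.216, for Pdk1. At an unadjusted p under 0.05, 4 of 30 members were higher in mPGC-1α microglia (Mpc2, Mdh2, Me2 and Idh3b) and 1 was lower (Pdk1), beside 7.97% and 5.76% of all genes. The mean was higher in mPGC-1α microglia for 21 of 30 members and lower for 9, beside 53.5% higher over all genes. Over the members the median difference was 0.22 on the log2 scale, and over all tested genes it was 0.02. With background correction by normexp and quantile normalization the split became 15 higher and 15 lower with a median of 0.03, and after a shift by the array median it was 18 and 12 with a median of 0.07 against -0.11 for all genes. Of the 28 members with a value on all arrays, 5 had all mPGC-1α arrays above all PGC-1αf/f arrays (Mdh2, Me2, Idh3b, Me1 and Pdha1) and 2 had them all below (Pdk1 and Pdhx). Over all genes these shares were 12.2% and 10.8%. The intervals bound what 3 arrays per group could show. The 95% interval of a member's difference reached 0.40 to either side at the median, from 0.30 for the most to 0.98 for the least precise, and included 0 for 25 of 30.

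**Figure D1:**
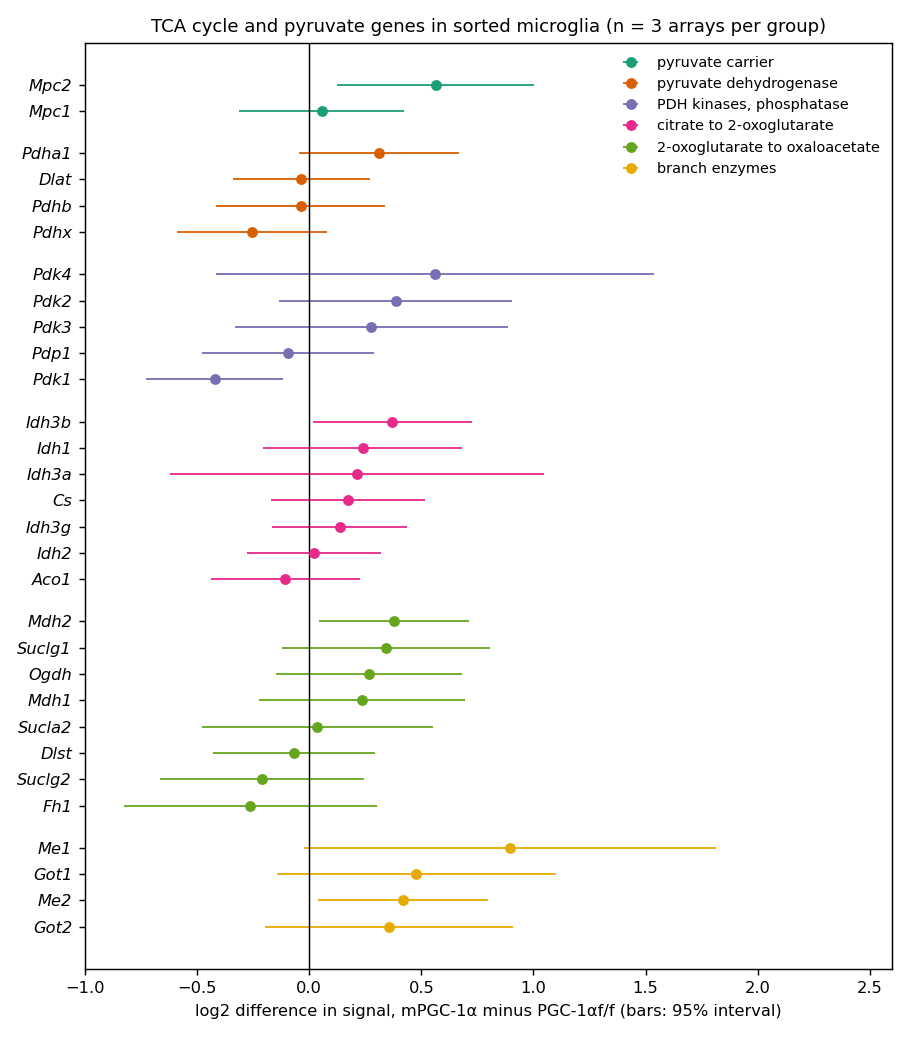
Difference in log2 signal between mPGC-1α and PGC-1αf/f microglia for the 30 fitted genes, by role; points are the limma estimates and bars their 95% intervals. 21 points lie above 0 and 9 below, and 25 of the 30 bars cross 0.

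The carrier of pyruvate is a pair of proteins that work together, and its genes gave unlike values. Mpc2 had signals of 2.13 and 2.22 on PGC-1αf/f replicates 1 and 3 and of 2.73 and 2.74 on mPGC-1α replicates 1 and 2. The spots on the other 2 arrays were flagged as outliers by the scanner software and left out. The difference of 0.56 ± 0.17 (SE), or 1.48-fold, had an unadjusted p of 0.021 and an adjusted p of 0.242 in limma. With the flagged spots kept, the arrays read 2.13, 2.49 and 2.22 against 2.73, 2.74 and 2.88, the groups did not overlap, and the difference was 0.51 ± 0.15 (adjusted p = 0.192, limma). The partner Mpc1 differed by 0.06 ± 0.16 (SE), with a 95% interval of -0.31 to 0.42, and its second probe by -0.04. That interval leaves room for a change of either sign.

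In the pyruvate dehydrogenase complex, the 4 fitted subunits had differences of both signs, with a median difference of -0.04 that ran from -0.073 without mPGC-1α replicate 1 to 0.0029 without mPGC-1α replicate 3. Pdha1, the catalytic E1 alpha subunit and the site of phosphorylation by the kinases, had signals of 1.61, 1.36 and 1.51 in PGC-1αf/f and 1.74, 1.67 and 2.01 in mPGC-1α microglia. The groups did not overlap, and the difference of 0.31 ± 0.15 (SE) had an adjusted p of 0.343 in limma. Pdhx, which anchors the E3 subunit to the core, read -0.26, -0.44 and -0.18 in PGC-1αf/f and lower, at -0.46, -0.70 and -0.49, in mPGC-1α microglia. Its groups too did not overlap, though the nearest arrays were close, with a difference of -0.25 ± 0.14 (SE) and an adjusted p of 0.386. Pdhb, the E1 beta subunit, differed by -0.04 and Dlat, the E2 core, by -0.04. A second probe of Dlat gave 0.23 ± 0.19 (SE), so the sign for this gene depends on the probe.

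Dld, the E3 subunit shared with the 2-oxoglutarate dehydrogenase complex, lost 4 of 6 arrays to outlier flags. With flagged spots kept, its signals were 0.91, 0.81 and 1.02 in PGC-1αf/f and 1.09, 1.11 and 1.27 in mPGC-1α microglia. Each mPGC-1α array then lay above each PGC-1αf/f array, and the difference was 0.25 ± 0.13 (SE; adjusted p = 0.373, limma).

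Among the regulators of the complex, Pdk1 had the smallest p of all members and was the kinase with a lower signal. Its arrays read 2.27, 2.10 and 2.06 in PGC-1αf/f microglia (mean 2.14 ± 0.11 SD) and 1.72, 1.64 and 1.80 in mPGC-1α microglia (1.72 ± 0.08). All mPGC-1α arrays lay below all PGC-1αf/f arrays. The difference of -0.42 ± 0.13 (SE), 1.34-fold lower, had an unadjusted p of 0.014 and an adjusted p of 0.216 in limma. The other 3 probes of Pdk1 gave differences of -0.67, -0.39 and -0.46, so all 4 were lower in mPGC-1α microglia. The probe at -0.46 was well above background on 2 of 3 mPGC-1α arrays. It entered the test only through the PGC-1αf/f arrays, so its sign is a description. Probes of 1 gene measure the same RNA and are no further replicates. The unadjusted p of Pdk1 stayed under 0.05 when any array but mPGC-1α replicate 2 was left out (0.058 without it).

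The other kinases had higher means, and the median over the kinases and the phosphatase, 0.28, ran from 0.025 without mPGC-1α replicate 3 to 0.40 without PGC-1αf/f replicate 2. Pdk2 read -1.56, -1.42 and -1.73 in PGC-1αf/f and -1.09, -0.84 and -1.61 in mPGC-1α microglia. Replicate 3 of mPGC-1α lay within the PGC-1αf/f range, and the difference was 0.39 ± 0.22 (SE; adjusted p = 0.400, limma), or 0.60 without that array and 0.21 without mPGC-1α replicate 2. Pdk4, a kinase induced in fasting and a known target of PGC-1α in muscle, spanned a wide range within each group, at -0.63, -1.43 and -2.19 against -0.32, -1.09 and -1.16. The groups overlapped, and the difference of 0.56 ± 0.41 (SE; adjusted p = 0.503, limma) became 0.18 without PGC-1αf/f replicate 3, the lowest of its values, and 0.95 without PGC-1αf/f replicate 1. Pdk3 differed by 0.28 ± 0.26 (SE), a value that ran from 0.025 without mPGC-1α replicate 3 to 0.50 without mPGC-1α replicate 2. The phosphatase Pdp1 differed by -0.09 ± 0.16 (SE).

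The windows upstream of the transcription start are shown for Pdk1, which had the smallest p, for Pdk4, its relative with a known link to PGC-1α, and for Mdh2, the cycle enzyme with the smallest p. These are 250 bases each, read 5′ to 3′ on the strand of the gene from RefSeq (GRCm38.p6), with CG dinucleotides in capitals. Pdk1 lies at chr2:71872974-71873223 (plus strand), Pdk4 at chr6:5496279-5496528 (minus strand) and Mdh2 at chr5:135778399-135778648 (plus strand).
Pdk1: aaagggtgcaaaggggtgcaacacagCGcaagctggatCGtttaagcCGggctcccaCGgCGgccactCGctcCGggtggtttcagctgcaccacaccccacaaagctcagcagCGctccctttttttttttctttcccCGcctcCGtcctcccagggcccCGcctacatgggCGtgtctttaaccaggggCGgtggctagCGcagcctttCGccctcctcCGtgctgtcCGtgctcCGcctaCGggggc
Pdk4: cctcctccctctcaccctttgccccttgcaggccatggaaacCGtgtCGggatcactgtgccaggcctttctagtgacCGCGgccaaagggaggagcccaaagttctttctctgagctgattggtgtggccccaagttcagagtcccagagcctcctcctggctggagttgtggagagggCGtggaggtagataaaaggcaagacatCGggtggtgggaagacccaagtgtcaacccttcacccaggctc
Mdh2: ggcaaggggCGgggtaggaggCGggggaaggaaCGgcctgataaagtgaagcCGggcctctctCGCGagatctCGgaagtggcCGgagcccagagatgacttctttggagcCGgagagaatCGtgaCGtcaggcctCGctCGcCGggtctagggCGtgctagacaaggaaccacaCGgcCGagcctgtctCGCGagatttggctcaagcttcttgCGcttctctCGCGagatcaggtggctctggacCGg
The windows shown held 19 CG dinucleotides for Pdk1, 6 for Pdk4 and 23 for Mdh2, and the ratio of observed to expected CG was 0.76, 0.28 and 0.95 in the same order. A second window of Pdk1, at chr2:71874654-71874903, held 2 with a ratio of 0.22, both below the values of Pdk4. The median of this ratio was 0.77 over 39 windows of the 29 members in the table and 0.37 over all 32851 windows, and the median GC content was 61.6% against 52.4%. For the factors that PGC-1α works with, a motif of ERR (TNAAGGTCA, either strand) was found in a window of 0 of the 29 members and of 1.3% of all 27025 genes (1.14% of windows). The motif of NRF1 (GCGCANGCG, either strand) was found for 2 of 29, Ogdh and Sucla2, and for 5.86% of all genes (5.16% of windows). These counts say only which letters these windows hold.

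In the reactions from oxaloacetate and acetyl-CoA to 2-oxoglutarate, 6 of 7 genes had a higher mean in mPGC-1α microglia, with a median difference of 0.17. Cs, citrate synthase, which makes citrate and is often used as a measure of mitochondrial content, had signals of 2.59, 2.64 and 2.44 in PGC-1αf/f and 2.87, 2.78 and 2.54 in mPGC-1α microglia. Replicate 3 of mPGC-1α lay within the PGC-1αf/f range, and the difference was 0.17 ± 0.14 (SE; adjusted p = 0.558, limma). A second probe of Cs gave 0.39 ± 0.15 with an unadjusted p of 0.032 and an adjusted p of 0.269, while normexp correction and quantile normalization together turned the first to -0.04.

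Isocitrate dehydrogenase 3, the NAD-dependent enzyme of the cycle, is built of alpha, beta and gamma subunits. The beta subunit Idh3b read 1.02, 0.68 and 0.75 in PGC-1αf/f and 1.26, 1.04 and 1.25 in mPGC-1α microglia. The nearest arrays of the groups were 1.02 and 1.04, so the groups were separated by little, with a difference of 0.37 ± 0.15 (SE), an unadjusted p of 0.043 and an adjusted p of 0.287 in limma. Idh3a, the catalytic subunit, kept values on only 3 arrays, 1.03 and 0.59 on PGC-1αf/f replicates 2 and 3 and 1.03 on mPGC-1α replicate 3. With flagged spots kept it read 1.45, 1.03 and 0.59 against 1.80, 1.40 and 1.03, which overlapped, with a difference of 0.38 ± 0.28 (SE; adjusted p = 0.492, limma). The gamma subunit Idh3g differed by 0.14 ± 0.13. Of the NADP-dependent enzymes, the cytosolic Idh1 differed by 0.24 ± 0.19 and the mitochondrial Idh2 by 0.02 ± 0.13, and Aco1, the cytosolic aconitase and iron sensor, by -0.11 ± 0.14 (all SE). Without mPGC-1α replicate 1 the difference of Idh1 was 0.048 and that of Aco1 -0.015. Without PGC-1αf/f replicate 3, 4 of the 7 genes of these reactions had a higher mean and their median was 0.12, and without mPGC-1α replicate 1 it was 5 of 7 with 0.10.

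From 2-oxoglutarate back to oxaloacetate, 5 of 8 genes had higher means, with a median difference of 0.14. That median rested on single arrays, at 0.041 without mPGC-1α replicate 1 (4 of 8 higher), 0.077 and 0.078 without replicates 2 and 3 of PGC-1αf/f, and 0.32 without its replicate 1. Mdh2, the mitochondrial malate dehydrogenase that closes the cycle, had signals of 3.21, 3.20 and 2.96 in PGC-1αf/f (mean 3.12 ± 0.14 SD) and 3.58, 3.36 and 3.56 in mPGC-1α microglia (3.50 ± 0.12). Each mPGC-1α array lay above each PGC-1αf/f array, and the difference of 0.38 ± 0.14 (SE), 1.30-fold, had an unadjusted p of 0.031 and an adjusted p of 0.265 in limma. Its cytosolic partner in the malate-aspartate shuttle, Mdh1, differed by 0.24 ± 0.19, or by 0.12 without PGC-1αf/f replicate 3 and 0.41 without PGC-1αf/f replicate 1.

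Suclg1, the alpha subunit of both forms of succinyl-CoA ligase, read 2.21, 2.03 and 1.63 against 2.53, 2.22 and 2.14 in mPGC-1α microglia. The groups overlapped by replicate 1 of PGC-1αf/f, and the difference was 0.34 ± 0.20 (SE; adjusted p = 0.400, limma), or 0.18 without PGC-1αf/f replicate 3. The beta subunits that give the enzyme its preference for GDP or ADP, Suclg2 and Sucla2, differed by -0.21 ± 0.19 and 0.04 ± 0.22, and Suclg2 by -0.021 without mPGC-1α replicate 3. Ogdh, the E1 subunit of the 2-oxoglutarate dehydrogenase complex, read 3.53, 3.15 and 3.04 in PGC-1αf/f and 3.40, 3.45 and 3.69 in mPGC-1α microglia. Here again PGC-1αf/f replicate 1 lay among the mPGC-1α arrays, with a difference of 0.27 ± 0.17 (SE; adjusted p = 0.454, limma), which became 0.17 when PGC-1αf/f replicate 3 was left out and 0.41 when replicate 1 was. The E2 subunit of that complex, Dlst, differed by -0.07 ± 0.15 and fumarase, Fh1, by -0.26 ± 0.24. Fh1 moved with single arrays, to -0.023 without PGC-1αf/f replicate 1 and -0.45 without PGC-1αf/f replicate 2.

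**Figure D2:**
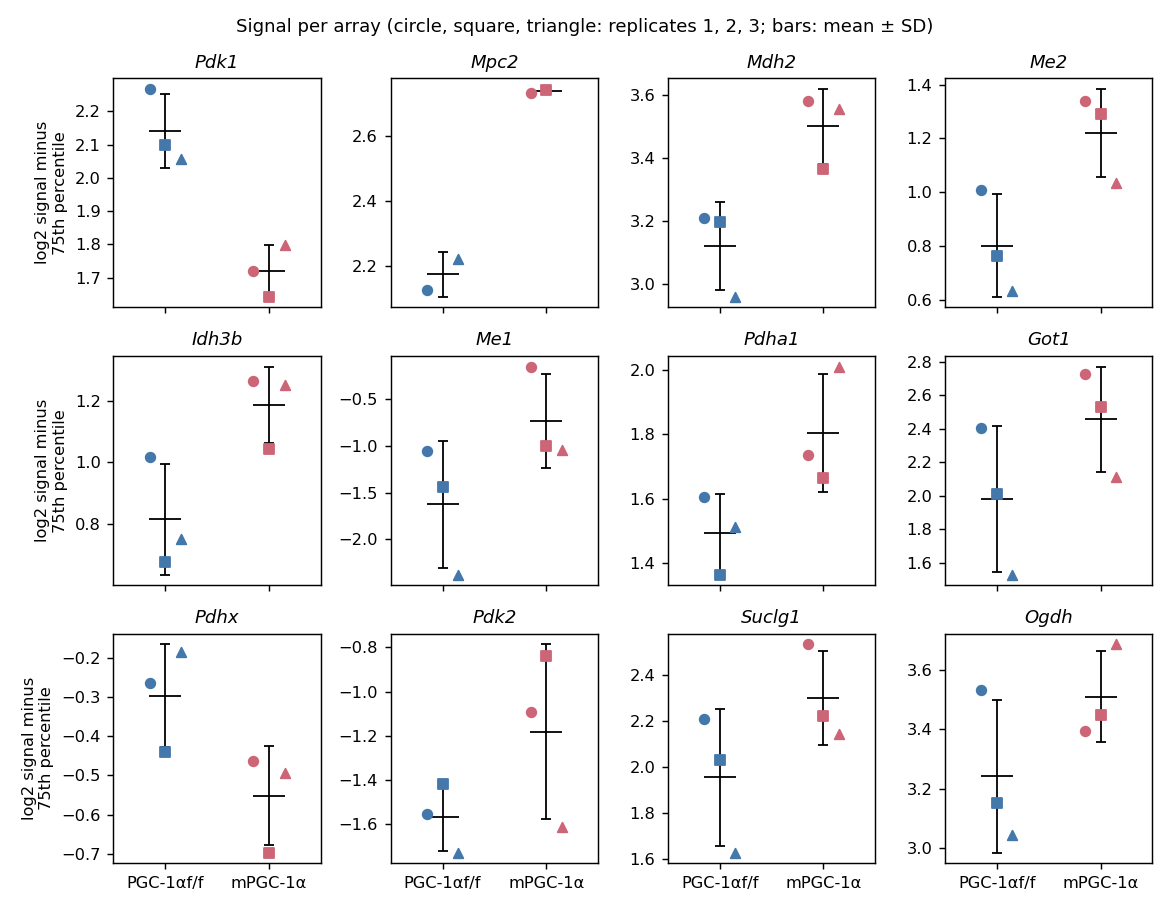
Log2 signal minus the 75th percentile of the array for the 12 genes with the smallest limma p, with each array as a point and the mean ± SD as bars; each panel has its own axis, which does not start at 0. Groups do not overlap for Pdk1, Mdh2, Me2, Idh3b, Me1, Pdha1 and Pdhx, and Mpc2 has values on 4 arrays only.

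The enzymes that branch from the cycle had a median difference of 0.45, with 4 of 4 fitted genes higher. For all 4, PGC-1αf/f replicate 3 was the lowest array and mPGC-1α replicate 1 the highest, and without PGC-1αf/f replicate 3 the median was 0.29. Me2, the mitochondrial malic enzyme that turns malate into pyruvate with NAD, read 1.01, 0.77 and 0.63 in PGC-1αf/f and 1.34, 1.29 and 1.03 in mPGC-1α microglia. The groups did not overlap, with replicate 1 of PGC-1αf/f and replicate 3 of mPGC-1α close together, and the difference was 0.42 ± 0.16 (SE), 1.34-fold, with an unadjusted p of 0.034 and an adjusted p of 0.272 in limma. Me1, the cytosolic malic enzyme that supplies NADPH, had the largest fitted difference of the members, at 0.89 ± 0.39 (SE; adjusted p = 0.306, limma). Its arrays read -1.06, -1.44 and -2.38 against -0.15, -0.999 and -1.04, where the groups did not overlap but replicate 1 of PGC-1αf/f and replicate 3 of mPGC-1α lay close together. Without PGC-1αf/f replicate 3 the difference of Me1 was 0.52. A second, brighter probe had 1 array flagged as an outlier and gave 0.42 ± 0.28 without it. With that spot kept the brighter probe read 0.02, -0.32 and -0.76 against 1.08, 0.30 and -0.17, so the groups overlapped, with a difference of 0.76 ± 0.34 (SE; adjusted p = 0.316, limma).

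Got1 and Got2 are the cytosolic and mitochondrial aspartate aminotransferases of the malate-aspartate shuttle. Got1 read 2.40, 2.01 and 1.53 in PGC-1αf/f and 2.73, 2.53 and 2.12 in mPGC-1α microglia. The groups overlapped, and the difference was 0.48 ± 0.26 (SE; adjusted p = 0.385, limma), or 0.25 without PGC-1αf/f replicate 3. Got2 differed by 0.36 ± 0.23, and by 0.11 without that array. Acly, which splits citrate in the cytosol into acetyl-CoA for lipid synthesis, had values on all arrays only from a probe near background. Its brighter probe had outlier flags on 4 arrays, and with them kept it read 1.30, 0.65 and 1.54 against 1.495, 1.56 and 1.64, which overlapped, with a difference of 0.40 ± 0.23 (SE; adjusted p = 0.403, limma).

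Among members with several fitted probes, 11 in all, the probes had the same sign for 9 and opposite signs for Dlat and Mpc1.

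**Figure D3:**
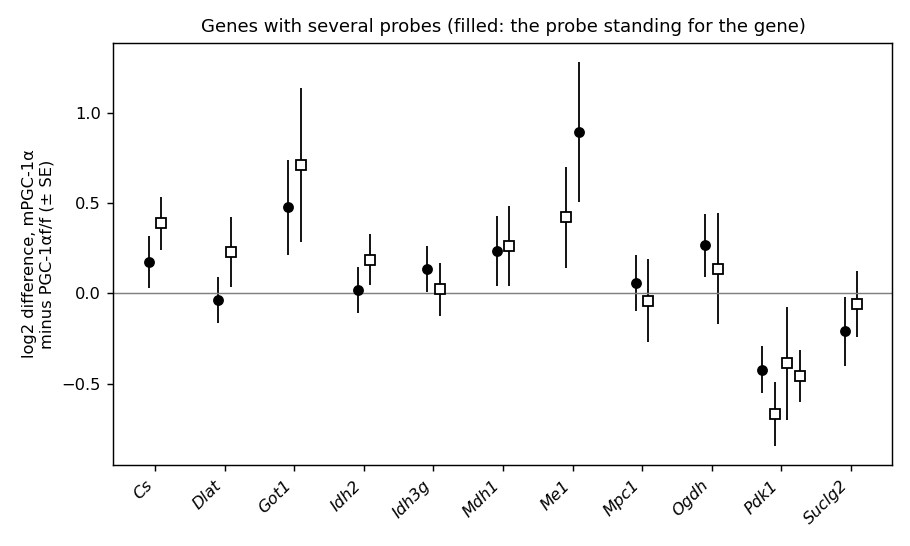
Difference in log2 signal between mPGC-1α and PGC-1αf/f microglia, ± SE from limma, for each fitted probe of the 11 genes with several; filled circles are the probe that stood for the gene and open squares the others. All 4 probes of Pdk1 lie below 0, though the probe at -0.46 entered the test only through the PGC-1αf/f arrays. The pairs of Dlat and Mpc1 straddle 0.

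Taken array by array, the members varied within the groups as well as between them. The median deviation of the 28 complete members from their means over the 6 arrays was 0.10, -0.08 and -0.16 for PGC-1αf/f replicates 1 to 3 and 0.17, 0.03 and 0.01 for mPGC-1α replicates 1 to 3. The PGC-1αf/f replicate 1 array was thus above mPGC-1α replicates 2 and 3. Replicate 3 of PGC-1αf/f was the lowest array for 14 of 28 members, as it was for 4107 of 12300 genes, and replicate 1 of mPGC-1α was the highest for 14, against 2377 of 12300. Within slide column 1, which holds replicate 1 of each group, the median difference was 0.16 with 19 of 28 members higher, and within column 2 it was 0.16 with 21 of 28. Over all genes these medians were 0.01 and 0.02, with 51.4% and 53.5% higher. Columns 3 and 4 held 1 array each and give no such value.

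**Figure D4:**
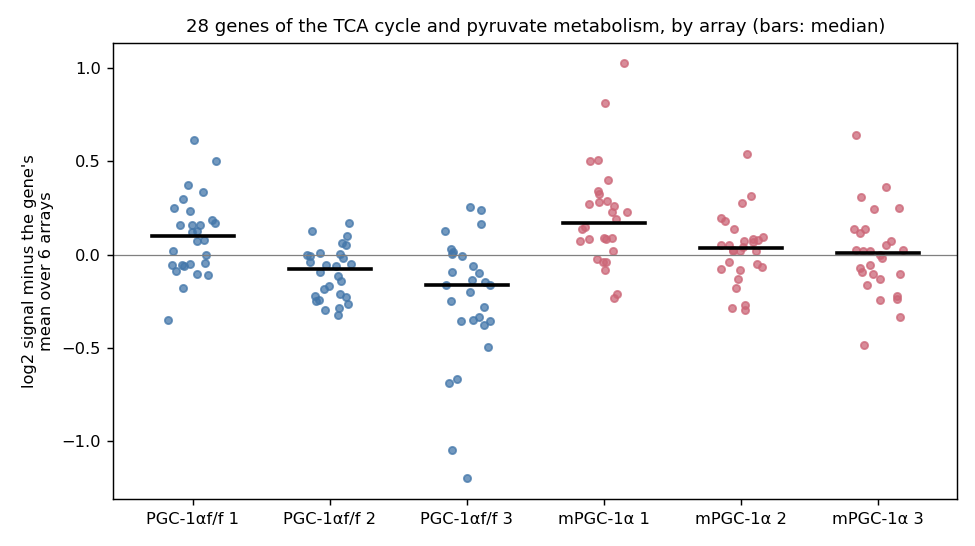
Deviation of each of 28 complete genes from its own mean over the 6 arrays, in log2 units, by array; bars are medians. The medians run from -0.16 on PGC-1αf/f replicate 3 to 0.17 on mPGC-1α replicate 1, and PGC-1αf/f replicate 1 lies at 0.10.

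The array that stood apart had weight in these counts. Without PGC-1αf/f replicate 3 the median difference of the members was 0.12, and 1 member was higher (Mpc2) and 1 lower (Pdk1) at an unadjusted p under 0.05 in limma, where 6.14% and 3.63% of all genes were. Without PGC-1αf/f replicate 1 there were 8 higher and 1 lower (12.6% and 6.27% of all genes), and without PGC-1αf/f replicate 2 there were 1 and 1 (8.41% and 4.38%). Without mPGC-1α replicate 1 there were 0 and 1 (5.02% and 4.42%), without mPGC-1α replicate 2 there were 2 and 0 (4.65% and 3.58%), and without mPGC-1α replicate 3 there were 3 and 1 (4.996% and 4.68%). Of the 30 fitted members, 7 stayed within 1.5 times their difference whichever array was left out (Pdk1, Mpc2, Mdh2, Me2, Idh3b, Idh3g and Pdhx), and 23 did not. The median was 0.18 without mPGC-1α replicate 3, the array whose Y-linked signals went against its label. With both replicate 3 arrays left out it was 0.11, with 20 members higher and 9 lower.

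Markers of other cells differed in their means between the groups too. Of the blood leukocyte markers 16 of 17 tested had a higher mean in mPGC-1α samples (median 1.11). So did 6 of 6 tested endothelial and mural markers (0.76) and 6 of 6 border macrophage markers (0.29). Mmp9 and Acta2 entered these counts only through the mPGC-1α arrays, where they were higher, so their places are a description. Of 11 endothelial and mural markers listed, the others did not pass the filter on dim probes. Among those, Pecam1 was lower in mPGC-1α samples without overlap (means -4.18 against -3.37), and Cdh5, Tek, Rgs5 and Kcnj8 overlapped. Oligodendrocyte markers were lower for 8 of 9 tested (-0.55) and microglial markers, Cx3cr1 among them, for 11 of 14 (-0.18). Mog had the largest difference of the oligodendrocyte markers (-1.39). It entered the test only through the PGC-1αf/f arrays, so its place in the count is a description. No marker of any cell type listed here passed an adjusted p of 0.05 in limma. These medians moved when single arrays were left out. Without PGC-1αf/f replicate 3 the median was 0.35 for leukocyte markers (15 of 16 higher), 0.059 for endothelial and mural markers (5 of 6) and -0.36 for oligodendrocyte markers, while endothelial and mural markers had 1.15 without PGC-1αf/f replicate 1 and 0.46 without mPGC-1α replicate 3. The median of microglial markers ran from -0.22 to -0.077 over the 6 omissions of 1 array. By array, the median leukocyte deviation was 0.10, 0.53 and -2.21 in PGC-1αf/f and 0.34, 0.56 and 0.86 in mPGC-1α samples, an order unlike that of the members except for PGC-1αf/f replicate 3, lowest in both. Of the astrocyte markers, 4 of 8 were higher (median 0.03), and mPGC-1α replicate 1, the array on which members were most often highest, was the highest for 8 of 8 of them, with a median deviation of 0.81. Without that array 7 of 8 were lower (-0.28), and without mPGC-1α replicate 3, 8 of 8 were higher (0.16). Neuronal markers were higher for 6 of 8 (0.12), with median deviations of 0.32, -0.10 and -0.43 in PGC-1αf/f and 0.27, -0.26 and 0.06 in mPGC-1α samples, so that replicate 1 of both groups was high and PGC-1αf/f replicate 3 lowest, as for the members. Erythroid markers were higher for 4 of 4 tested (0.20). Slc4a1, with the largest difference of these (1.40), entered the test only through the mPGC-1α arrays, so its place is a description. Without PGC-1αf/f replicate 3, 6 of 8 neuronal (-0.085), 6 of 8 astrocyte (-0.11) and 3 of 4 erythroid markers (-0.42) were lower in mPGC-1α samples. Without mPGC-1α replicate 3, border macrophage markers had a median of 0.066 (4 of 6 higher) and erythroid markers -0.14 (3 of 4 lower). The neuronal median was 0.28 without PGC-1αf/f replicate 1 and 0.020 without mPGC-1α replicate 1. In sorted bulk samples a smaller number of cells of a type and less RNA per cell cannot be told apart, and the part of these markers in the members' values was not tested.

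Of 37 other genes of the cycle and its side reactions, 33 were tested, and none passed an adjusted p of 0.05 in limma. Their median difference was 0.08 (-0.0076 without PGC-1αf/f replicate 1, with 16 of 33 higher), with 3 genes higher and 2 lower in mPGC-1α microglia at an unadjusted p under 0.05, beside 7.97% and 5.76% of all genes. Those with the smallest p follow as values. Slc25a12, a mitochondrial carrier that exchanges aspartate for glutamate in the malate-aspartate shuttle, read 1.39, 1.19 and 0.81 against 1.81, 1.60 and 1.73, without overlap, a difference of 0.58 ± 0.18 (SE; adjusted p = 0.221, limma). Acod1, which makes itaconate from the cycle intermediate cis-aconitate in activated macrophages, read -2.82, 0.74 and -5.25 against 1.57, 0.73 and 3.11. It was well above background on 2 of 3 PGC-1αf/f arrays and entered the test only through the mPGC-1α arrays, so its place among the 3 higher genes is a description. The groups overlapped at PGC-1αf/f replicate 2 and mPGC-1α replicate 2, and the difference of their means was 4.25. Sdhc, a membrane subunit of succinate dehydrogenase, had no value on mPGC-1α replicate 3 and differed by 0.42 ± 0.17 (SE; adjusted p = 0.293, limma). Its difference was 0.33 without mPGC-1α replicate 1 and 0.51 without mPGC-1α replicate 2. The lower genes were Pck2, the mitochondrial phosphoenolpyruvate carboxykinase (-0.56 ± 0.21), and Pdp2, a second pyruvate dehydrogenase phosphatase (-0.40 ± 0.16). Me3, another mitochondrial malic enzyme, had the next smallest p, with a difference of 0.94 ± 0.43 (SE; adjusted p = 0.325, limma). Its groups overlapped, and leaving out PGC-1αf/f replicate 3 gave 0.45 for Me3 and 2.84 for Acod1.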

How the data were processed

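Microglia from PGC-1αf/f (n = 3) and mPGC-1α (n = 3) mice were measured on 1-colour Agilent arrays. The authors amplified total RNA, labelled it with Cy5 and deposited scanner files with the intensity of each spot after background subtraction and spatial correction by Feature Extraction, and a table that repeats these values, with arrays not normalized to each other. Per the study's methods, normalization was done in GeneSpring, and no test per gene is given. The labels gave each sample's group and replicate number.

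Control spots and spots flagged as outliers were left out. Log2 intensity was reduced by the array's 75th percentile over 59305 non-control spots, and spots of a probe were averaged. Between 27025 and 30272 spots per array were well above background and none was saturated, and the number of arrays limits the precision. A probe entered the test if, in either group, at least 0.5 of its spots were well above background on each of the 3 arrays (25333 of 56605 probes, of which 25257 gave a p). Probes were named through their transcript accession and a RefSeq table of GRCm38.p6, and 33767 probes had a single symbol. The probe with the highest mean among those with a value on all 6 arrays stood for a gene, otherwise the one with the highest mean. The two-sided test was limma's (version 3.58.1, lmFit then eBayes; R 4.3.3 and data.table, version 1.17.8), with Benjamini-Hochberg adjustment over all tested probes (20 probes past 0.05). The script was tested on simulated data. Python 3.11.15 (numpy 2.4.6, pandas 2.3.3, matplotlib 3.10.9) served for promoters and plots.

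All members are named. Values per array are given for the 12 members with the smallest p, for Cs, Idh3a and Pdk4, and for Ppargc1a. Dld and Acly were added after their values were seen. Of the other genes of the pathway, the 6 with the smallest p are named. The members, lists and marker genes were chosen with earlier results of these data known. Alternatives were another normalization or background correction, the deposited table, other filters, outlier spots kept, blocks, array weights, the mean over probes, and each array left out. Leaving out both replicate 3 arrays, and taking the brightest probe with outlier spots kept, were chosen after seeing the data.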

Additional observations from a re-analysis of the deposited data

How the results depend on the processing

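No member passed an adjusted p of 0.05 in limma under any of 20 alternatives. The median difference of the members, 0.22, was 0.072 after a shift by the array median (-0.11 over all genes), 0.034 with normexp and quantile normalization, 0.14 with quantile normalization alone (19 higher and 11 lower), 0.15 with array weights, 0.11 without both replicate 3 arrays, and from 0.12 to 0.22 with 1 array left out. Members higher at an unadjusted p under 0.05, 4 of 30, numbered 0 with the median shift (5.81% of all genes), 0 without the filter on dim probes (4.86%), 1 in the deposited table (5.55%) and 8 with array weights (11.3%). Pdk1, Mpc2, Mdh2, Me2 and Idh3b kept their direction under each of the 20. Signs turned for other members, among them Pdk3 and Fh1. Quantile normalization gave -0.086 for Idh2 and -0.050 for Mpc1. The median shift gave -0.11 for Idh2, -0.096 for Sucla2 and -0.077 for Mpc1. Normexp with quantile normalization gave -0.036 for Cs, -0.060 for Idh2, -0.054 for Idh3a, -0.017 for Idh3g, -0.081 for Sucla2 and -0.17 for Mpc1. The deposited table gave -0.014 for Idh2 and -0.10 for Idh3a. Array weights gave -0.021 for Idh2, 0.059 for Dlst, 0.020 for Fh1, -0.080 for Pdk3 and -0.12 for Mpc1. The mean over probes gave 0.097 for Dlat. Without both replicate 3 arrays, Idh2 was -0.028, Dlst 0.11, Dlat 0.014 and Mpc1 -0.026. With 1 array left out, Pdhb ranged from -0.13 to 0.064, Pdp1 from -0.20 to 0.030, Sucla2 from -0.096 to 0.23, Idh2 from -0.022 to 0.064, Idh3a from -0.0066 to 0.43, Dlst from -0.13 to 0.041, Dlat from -0.072 to 0.036 and Mpc1 from -0.026 to 0.16. The causes were not tested.

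The deposited table, which is not normalized between arrays, put 1 of the other genes of the pathway past the threshold, Acod1, against 0. That gene entered the test only through the mPGC-1α arrays. With the replicate number as a block the median of the members was 0.24, and 0 members and 0 probes passed. Deviations of arrays with the same number correlated at 0.14, 0.13 and 0.019, with 5 of 6 arrays closest to their own number. Replicates 1 and 2 of both groups also shared slide columns, so pairing and column cannot be told apart there. The labels do not say that the numbers mark pairs, and the main test did not pair them. Over the whole array, the 20 probes past the threshold became 754 with array weights, 456 in the deposited table, 138 with slide column as a random block, 11 each with quantile normalization, the median shift and normexp, 9 without the filter on dim probes, 4 with signal required on all 6 arrays, 2 without both replicate 3 arrays and 0 to 24 with 1 array left out.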
